A study of Mus musculus with 6 samples.

Results

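Toll-like receptors are membrane proteins with which cells of innate immunity recognise microbial molecules and, after injury, some molecules released by damaged cells. The 10 mouse genes Tlr1, Tlr2, Tlr3, Tlr4, Tlr5, Tlr6, Tlr7, Tlr8, Tlr9 and Tlr13 were taken by their symbols from the 13960 rows of a table of gene expression, whatever their values. All 10 had a row, and all 10 were among the 13042 genes tested. The libraries come from spinal cord after a contusion at T8, a thoracic level, in LysMCre:Rplfl/fl > CD45.1 chimeras, and 3 were made 7 days and 3 were made 3 days after the injury. LysMCre is active in macrophages, monocytes and neutrophils, and in cells that carry it the RiboTag allele puts an epitope tag on a ribosomal protein, so that their ribosomes and the RNA bound to them can be precipitated. In this notation the cells with both alleles come from the donor and the CD45.1 mouse is the host, so cells the host still has carry neither allele. Both times share the injury, the alleles and the precipitation, and the labels give no age, no uninjured cord and no unprecipitated RNA. Nothing in them ties a library to an animal, and the spread behind each p-value, taken over these libraries, may therefore be technical.

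Each receptor pairs an outer part that binds a ligand with an inner part that recruits the adaptor proteins MyD88 or TRIF. Tlr1, Tlr2, Tlr4, Tlr5 and Tlr6 act mainly at the cell surface on bacterial lipoproteins, lipopolysaccharide and flagellin. Tlr3, Tlr7, Tlr8, Tlr9 and Tlr13 act in endosomes, where they meet nucleic acids. The adaptors pass the signal to NF-kB and to interferon regulatory factors, and macrophages and microglia are among the cells of an injured cord known to carry many of these receptors.

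Values are FPKM, fragments scaled to the length of the transcript and to the size of the library, so levels of different genes can be set side by side. How the size of each library was taken is not stated, and the number of fragments behind each value is unknown. Between 10248 and 10402 of the genes tested reached 1 FPKM in the 7-day libraries, and between 11147 and 11675 in the 3-day libraries. The ribosomal protein gene Rpl22 measured 39.7, 49.2 and 46.9 FPKM at 7 days and 41.6, 46.4 and 53.7 FPKM at 3 days, untagged transcripts included. Lyz2, the gene whose promoter drives LysMCre, was listed at 9435, 5862 and 0 FPKM at 7 days and at 4108, 2900 and 4272 FPKM at 3 days, and was left out of the test for its listed 0. Of 7 macrophage markers tested, the integrin gene Itgam had 622, 609.95 and 617 FPKM at 7 days, against 552, 570 and 565 FPKM at 3 days. The sums of all 7 markers ran from 1262 to 1293 FPKM at 7 days and from 1255 to 1435 FPKM at 3 days. At 7 days 2 of the markers were higher and 3 lower. Itgam is in neither count, and Cd14, given below as a co-receptor, is 1 of the 3 lower.

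Tlr13, Tlr7 and Tlr8, receptors of endosomes known to sense RNA, were the most abundant of the family at both times. Tlr8 and Tlr4 rose most between the times, Tlr7 and Tlr13 rose less, Tlr5 fell, and Tlr1, Tlr2, Tlr3, Tlr6 and Tlr9 did not pass the test. A gene was called where limma on log2(FPKM + 1) gave it an adjusted p no higher than 0.05, with Benjamini-Hochberg adjustment over all genes tested, 7 days minus 3 days; on this scale the change of a gene with a low level is understated. Of the 10 genes, 4 were called higher, beside 18.8% of all genes tested, and 1 was called lower, beside 20.3%; calls in either direction took 39.1% of all genes. The 7-day libraries all lay above the 3-day libraries for 6 of the 10, beside 26.8% of all genes, and all below for 1, beside 28.6%; the times were apart in either direction for 55.4% of all genes. By the q-value of the authors' deposited table, at the same threshold, 5 members were higher, beside 17.8% of all genes tested, and 1 was lower, beside 20.7%. The median log2 change of the 10 was 0.35, beside -0.04 over all genes tested.

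**Figure D1:**
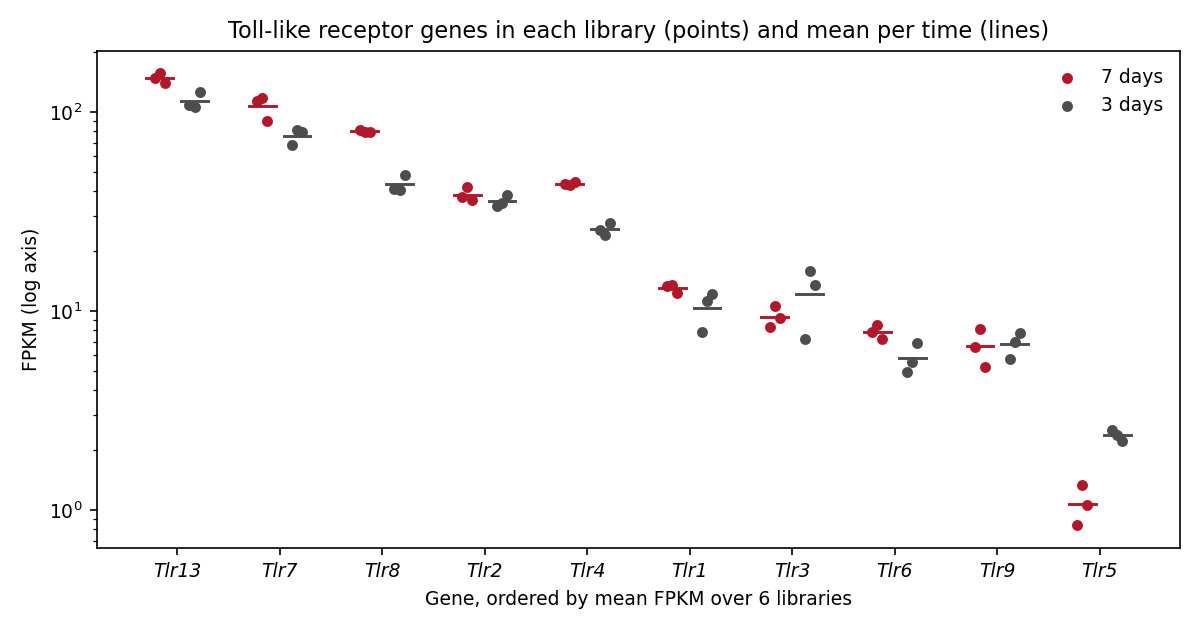
FPKM of the 10 Toll-like receptor genes on a log axis, with a point for each library of 7 days (red, left) and 3 days (grey, right) and a line at the mean of each time. Tlr13 is the highest and Tlr5 the lowest gene at both times, and Tlr4 lies above Tlr2 at 7 days and below it at 3 days.

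The order of the levels was led by Tlr13, Tlr7 and Tlr8 at both times. At 7 days they had means of 148, 107 and 80.3 FPKM, and at 3 days of 114, 76.3 and 43.5 FPKM, and the ranges of the 3 genes did not overlap within either time. Over the 6 libraries Tlr13 ranked 459, Tlr7 730 and Tlr8 1168 of the 13042 genes tested. Tlr4 and Tlr2 followed with their order exchanged between the times. Below them, at 7 days, Tlr1 stood apart from the genes beneath it, while Tlr3 overlapped Tlr6 and Tlr6 overlapped Tlr9. At 3 days Tlr3 overlapped Tlr1 and Tlr9 overlapped Tlr6. Tlr5 was the lowest at both times, ranked 10246 of 13042. The 5 endosomal receptors together held 77.7%, 77.5% and 76.2% of the family's summed FPKM at 7 days and 75.6%, 76.3% and 75.95% at 3 days, so these ranges overlapped. The summed FPKM of the family was 461, 481 and 425 at 7 days and 306, 329 and 363 at 3 days.

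Tlr8 (mm10 chromosome X, 167237505 to 167264300) and Tlr7 (chromosome X, 167303181 to 167330573) encode close relatives that in humans sense single-stranded RNA and its breakdown products, and lie 38881 bp apart as the deposited table places them. Tlr8 had 81.3, 79.9 and 79.7 FPKM at 7 days, against 41.2, 40.8 and 48.5 FPKM at 3 days. All 7-day libraries stood well above all 3-day ones, and the 7-day values were close together. The means of 80.3 ± 0.900 and 43.5 ± 4.35 FPKM (SD, n = 3 each) differed 1.84-fold (log2 change 0.87 ± 0.10, SE; limma adjusted p = 0.00105), the largest increase among the 10 genes. Tlr7 had 114, 118 and 89.8 FPKM at 7 days, against 68.4, 81.0 and 79.4 FPKM at 3 days. The times did not overlap, but the lowest 7-day library came close to the highest 3-day one. The means of 107 ± 15.2 and 76.3 ± 6.87 FPKM differed 1.41-fold (log2 change 0.48 ± 0.13; adjusted p = 0.0259). The call of Tlr7 was lost in 5 of 17 alternatives, which were quantile normalization (limma adjusted p = 0.158) and leaving out 3-day replicate 1 or 3 or 7-day replicate 1 or 2 (0.0629, 0.0552, 0.0856 and 0.0914), while Tlr8 was called in all 17.

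Tlr13 (chromosome X, 106143140 to 106161471), which in mice senses bacterial ribosomal RNA, had 148, 157 and 140 FPKM at 7 days, against 109, 106 and 127 FPKM at 3 days. The groups did not overlap, and 3-day replicate 3 was the nearest to the 7-day values. The means of 148 ± 8.21 and 114 ± 11.0 FPKM differed 1.30-fold (log2 change 0.38 ± 0.11; limma adjusted p = 0.0275). That call was lost in 6 of 17 alternatives, which were quantile normalization (adjusted p = 0.224) and leaving out any single library other than 3-day replicate 3 (0.0561 to 0.0953). Tlr3 (chromosome 8, 45395554 to 45410674), a receptor for double-stranded RNA that signals through TRIF, had 8.32, 10.6 and 9.21 FPKM at 7 days, against 7.22, 15.9 and 13.5 FPKM at 3 days. Replicate 1 was the lowest of all 6 libraries among the 3-day values and the other two 3-day libraries were the highest, so the times overlapped (log2 change -0.29 ± 0.26; adjusted p = 0.398). Without 3-day replicate 1 the log2 change was -0.60 with an adjusted p of 0.0261. The summed FPKM of 7 astrocyte markers, of a cell type also known to make Tlr3, was 202 in 3-day replicate 1, 571 in replicate 2 and 247 in replicate 3. Sums of neuron, oligodendrocyte, endothelial, and fibroblast and pericyte markers were likewise lowest in 3-day replicate 1 and highest in replicate 2 among the 3-day libraries. The part of any of these cells in the Tlr3 values was not tested. An antisense gene, Gm45542, overlaps Tlr3 in GENCODE M21, and whether the counting used strand is not given in the sources used here. Tlr9 (chromosome 9, 106222656 to 106226888), the receptor for unmethylated CpG DNA, had 6.57, 8.11 and 5.25 FPKM at 7 days, against 5.74, 7.00 and 7.79 FPKM at 3 days. The times overlapped throughout (log2 change -0.05 ± 0.18; adjusted p = 0.851), and the sign turned with the scaling.

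Tlr4 (chromosome 4, 66827647 to 66847523), the receptor for lipopolysaccharide, had 43.6, 42.8 and 44.6 FPKM at 7 days, against 25.6, 24.0 and 27.6 FPKM at 3 days. The 2 times stood far apart relative to their spread. The means of 43.7 ± 0.895 and 25.7 ± 1.80 FPKM (SD, n = 3 each) differed 1.70-fold (log2 change 0.74 ± 0.09; limma adjusted p = 0.00139), and Tlr4 was called in all 17 alternatives. Tlr2 (chromosome 3, 83835975 to 83841907), which binds lipoproteins as a partner of Tlr1 or Tlr6, had 37.4, 42.0 and 36.0 FPKM at 7 days, against 33.8, 35.0 and 38.5 FPKM at 3 days. The times overlapped, and the log2 change of 0.10 ± 0.10 did not pass (adjusted p = 0.446). The ratio of Tlr4 to Tlr2 within a library was 1.16, 1.02 and 1.24 at 7 days and 0.755, 0.686 and 0.716 at 3 days, without overlap. Ratios within a library do not depend on how libraries were scaled to each other; with 3 libraries at each time the smallest exact p is 0.1, and the ratios are given as a description.

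Tlr5, the receptor for flagellin (chromosome 1, 182954774 to 182976001), was the 1 member that fell. It had 0.839, 1.34 and 1.06 FPKM at 7 days, against 2.54, 2.38 and 2.23 FPKM at 3 days. All 7-day values lay below all 3-day values, at levels near 1 FPKM. The means were 1.08 ± 0.249 and 2.38 ± 0.154 FPKM, a ratio of 0.453 (log2 change -0.71 ± 0.16; limma adjusted p = 0.0141), and with a pseudocount of 0.1 in place of 1 the log2 change was -1.10. Quantile normalization ended the call (log2 change -0.19; adjusted p = 0.448), as did centring on macrophage markers (-0.46; adjusted p = 0.0736) and leaving out 7-day replicate 1 (-0.62; adjusted p = 0.0541).

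Tlr1 (chromosome 5, 64924474 to 64933599) and Tlr6 (chromosome 5, 64951905 to 64969497) are neighbours 18306 bp apart, and their proteins pair with that of Tlr2 for lipoproteins with different lipid tails. Tlr6 had 7.85, 8.51 and 7.23 FPKM at 7 days, against 4.95, 5.57 and 6.87 FPKM at 3 days. The times did not overlap, but the log2 change of 0.39 ± 0.15 did not pass (limma adjusted p = 0.0749); the authors' deposited table gives Tlr6 a q-value of 0.0342, and quantile normalization (adjusted p = 0.0438) or centring on the median gene (0.0418) brought it past the threshold. Tlr1 had 13.3, 13.5 and 12.3 FPKM at 7 days, against 7.81, 11.2 and 12.2 FPKM at 3 days. Here the times touched without overlapping, with a log2 change of 0.32 ± 0.17 (adjusted p = 0.156; q-value of 0.0983 in the authors' deposited table). Both values are uncertain, because the genes share sequence: of all stretches of 50 bases in the longest coding transcript, 15.3% of those of Tlr1 also occur in Tlr6, and 12.6% of those of Tlr6 occur in Tlr1 or, for a few, in Ctsq, against 0 in each of the other 8 members on the same strand. How fragments that match both were divided is not given in the sources used here. Their longest identical run is shown because a fragment within it cannot be assigned to either gene. It has 229 bases, lies in the coding part of both genes on the minus strand (chr5:64925537-64925765 in Tlr1 and chr5:64953828-64954056 in Tlr6, GRCm38), and reads, with no letter set apart in capitals:
Tlr1 and Tlr6: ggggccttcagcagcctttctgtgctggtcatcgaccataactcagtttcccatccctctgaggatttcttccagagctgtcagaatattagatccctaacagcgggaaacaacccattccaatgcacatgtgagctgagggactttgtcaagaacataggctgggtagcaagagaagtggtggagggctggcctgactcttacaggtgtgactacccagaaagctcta

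**Figure D2:**
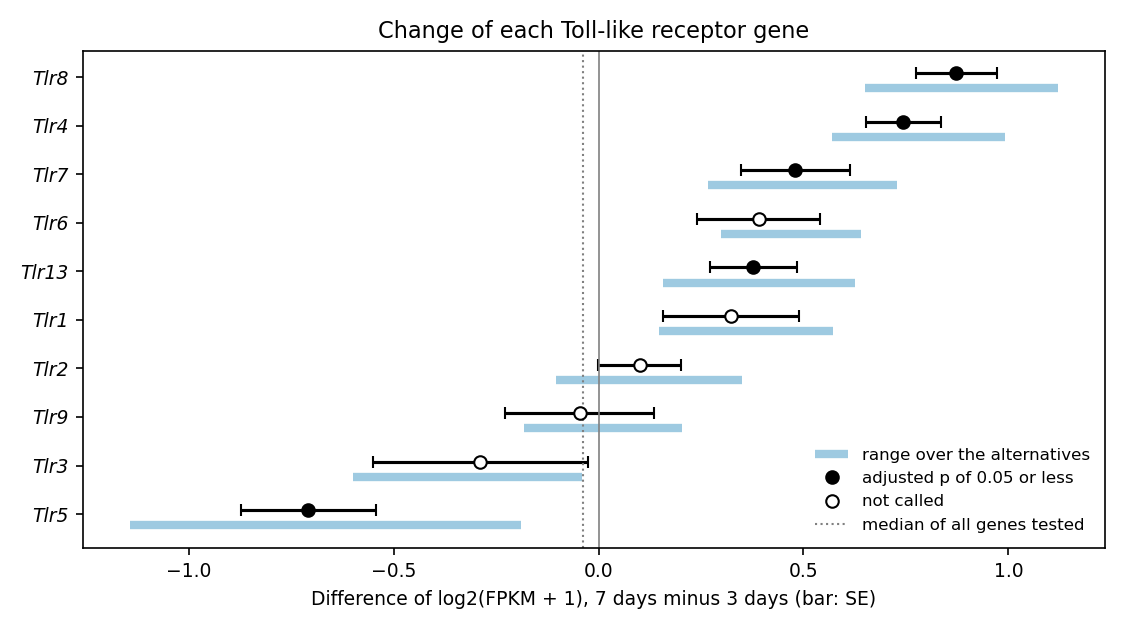
Difference of log2(FPKM + 1), 7 days minus 3 days, for each gene (circle; bar, SE; filled where the adjusted p is 0.05 or less), with the lowest to highest value over 17 alternative settings below it in blue. Tlr8 and Tlr4 lie farthest to the right and their blue bars stay above 0.5, Tlr5 lies farthest to the left, and the bars of Tlr2 and Tlr9 cross 0.

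Promoters are printed for Tlr8 and Tlr13, which rose, for Tlr5, which fell, and for Tlr2, which was not called, to show the start sites of members with different changes; the printed set is not evidence on any motif. RefSeq promoters of build GRCm38.p6, 250 bases before to 50 after a start site, were found for 8 of the 10 genes, and neither Tlr4 nor Tlr7 is among them. Capitals mark matches on either strand to GAGGAA, the ETS core of sites of the macrophage factor PU.1, or to GGG and CC with any 5 bases between them, a loose form of the NF-kB site. The searches for GAAA and GAAA with any 2 bases between them (an interferon response element) and for TGANTCA (an AP-1 site) found no match in these 4. The windows are chrX:167264280-167264579 (minus strand) for Tlr8, chrX:106143025-106143324 (plus) for Tlr13, chr1:182954538-182954837 (plus) for Tlr5 and chr3:83841559-83841858 (minus) for Tlr2.
Tlr8: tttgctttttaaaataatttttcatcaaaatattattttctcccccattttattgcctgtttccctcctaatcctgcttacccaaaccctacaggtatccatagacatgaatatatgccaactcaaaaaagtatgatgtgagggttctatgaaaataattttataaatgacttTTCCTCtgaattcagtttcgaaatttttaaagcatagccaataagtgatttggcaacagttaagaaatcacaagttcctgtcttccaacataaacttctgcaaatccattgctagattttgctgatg
Tlr13: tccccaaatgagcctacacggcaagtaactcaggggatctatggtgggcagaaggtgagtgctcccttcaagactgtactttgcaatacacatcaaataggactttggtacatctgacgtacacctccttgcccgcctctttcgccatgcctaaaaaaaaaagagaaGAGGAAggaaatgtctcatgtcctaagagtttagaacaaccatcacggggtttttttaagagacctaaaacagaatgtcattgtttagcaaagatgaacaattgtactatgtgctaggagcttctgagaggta
Tlr5: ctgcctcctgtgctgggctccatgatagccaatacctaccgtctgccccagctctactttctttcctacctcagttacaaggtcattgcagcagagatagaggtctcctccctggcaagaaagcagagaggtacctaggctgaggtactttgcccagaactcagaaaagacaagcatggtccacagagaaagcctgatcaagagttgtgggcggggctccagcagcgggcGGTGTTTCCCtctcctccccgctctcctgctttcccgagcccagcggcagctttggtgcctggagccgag
Tlr2: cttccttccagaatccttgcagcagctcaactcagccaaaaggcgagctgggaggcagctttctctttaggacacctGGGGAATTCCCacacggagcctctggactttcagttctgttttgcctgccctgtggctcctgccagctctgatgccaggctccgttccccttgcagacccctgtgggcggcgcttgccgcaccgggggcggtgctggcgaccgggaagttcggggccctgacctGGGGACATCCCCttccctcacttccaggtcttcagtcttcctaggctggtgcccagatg
GAGGAA occurs 1 time each in the windows of Tlr8 and Tlr13 and in none of those of Tlr5 and Tlr2. It also occurs 1 time in a window of Tlr1 and 2 times in that of Tlr9, neither of which was called, and 28.3% of all 32851 promoters in the RefSeq table hold it. The NF-kB form occurs 1 time in Tlr5 and 5 times, with overlaps, in Tlr2, also 3 times in Tlr3 and 1 time in Tlr6, neither of which was called, and 50.8% of all promoters hold it. Outside the 4 printed windows, the interferon response element occurs 2 times, with overlap, in a window of Tlr6. The AP-1 site occurs 1 time in that of Tlr9. The interferon response element is held by 3.44% and the AP-1 site by 7.81% of all promoters. A match is a description of these letters and not a bound site.

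Within each library, Tlr8 and Tlr4 were also higher at 7 days relative to Csf1r, the receptor gene of the macrophage growth factor CSF1. Tlr8 over Csf1r was 0.426, 0.377 and 0.416 at 7 days and 0.277, 0.296 and 0.336 at 3 days, and Tlr4 over Csf1r was 0.229, 0.202 and 0.233 at 7 days and 0.172, 0.174 and 0.191 at 3 days. Neither ratio overlapped between the times. Tlr7 over Csf1r, at 0.598, 0.556 and 0.470 against 0.459, 0.587 and 0.550, and Tlr13 over Csf1r, at 0.775, 0.740 and 0.733 against 0.732, 0.772 and 0.877, overlapped. These ratios were chosen after the values were seen. The ratios over Tlr2, Cd14, Ly96 and Unc93b1 given elsewhere were not planned beforehand either. Csf1r is 1 of the 7 macrophage markers tested, of which 2 were higher and 3 lower at 7 days. Csf1r itself lay higher in every 7-day library than in every 3-day one, so it is not a level reference. A receptor that rose by a like factor overlaps over it. The ratios over Csf1r therefore hold for that gene only, and whether they overlap may differ over another marker. In such bulk precipitates, more cells of a type and more RNA per cell cannot be told apart.

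**Figure D3:**
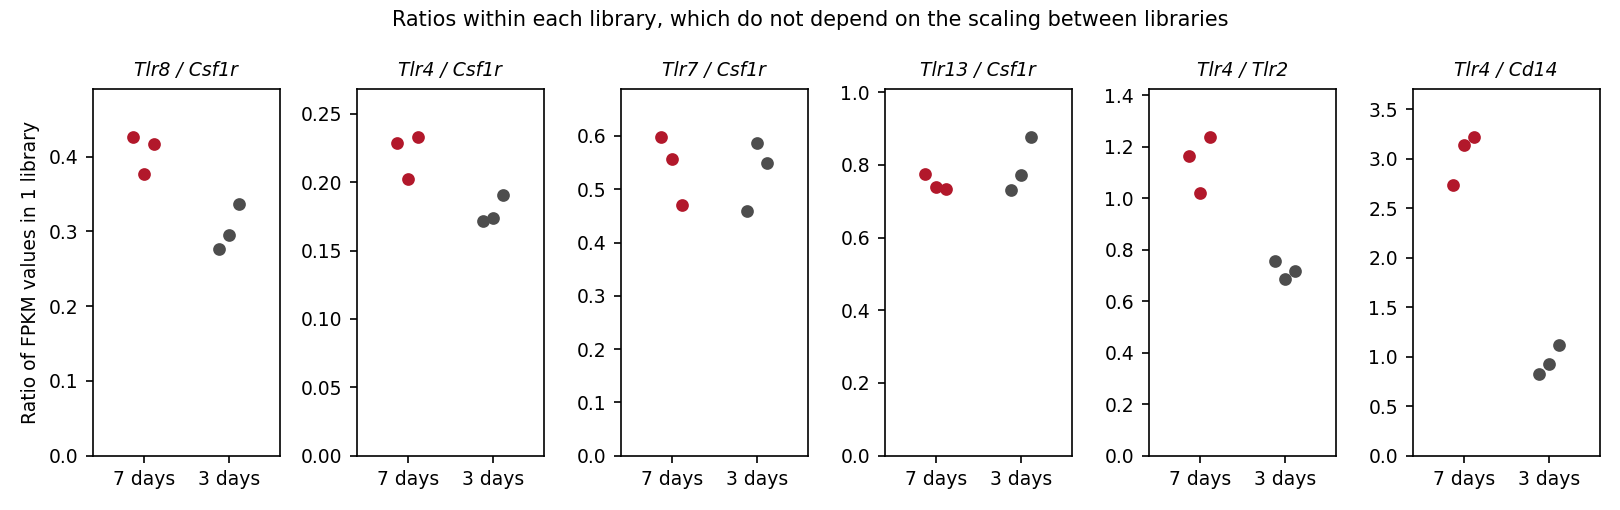
Ratios of FPKM values within each library, a point per library, at 7 days (red, left) and 3 days (grey, right); each panel has its own axis from 0. Tlr8 and Tlr4 over Csf1r, Tlr4 over Tlr2 and Tlr4 over Cd14 do not overlap between the times. Tlr7 and Tlr13 over Csf1r overlap, and Csf1r itself was higher in every 7-day library than in every 3-day one. Tlr4 over Cd14 had to separate, because Tlr4 rose and Cd14 fell without overlap.

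Markers of other cells, among them cells that carry Toll-like receptors, were read in the same libraries. Some of their sums overlapped between the times. Of 6 microglia markers reported, P2ry12, Tmem119, Sall1, Fcrls, Olfml3 and Cx3cr1, 5 were higher and 0 lower at 7 days, and their sum ran from 307 to 334 FPKM at 7 days and from 145 to 174 FPKM at 3 days. The microglial receptor P2ry12 had 27.6, 29.7 and 22.0 FPKM at 7 days, against 10.5, 19.4 and 14.3 FPKM at 3 days. Of 8 inflammatory monocyte markers, 0 were higher and 6 lower, with sums of 295 to 380 FPKM at 7 days and 1027 to 1157 FPKM at 3 days. Of 9 neutrophil markers, 2 were higher and 3 lower, with sums of 78.0 to 94.4 FPKM at 7 days and 75.6 to 80.2 FPKM at 3 days. Their median log2 change was -0.77, and Mpo was at 0 in all 7-day libraries. Conventional dendritic cell markers summed to 40.9 to 44.6 FPKM at 7 days and 14.6 to 17.2 FPKM at 3 days. Of the 5 tested, 2 were higher and 0 lower, Ccr7 was at 0 at 7 days, and the median log2 change was -0.23, against the direction of the sum. Plasmacytoid dendritic cells could be read from 2 markers only, 0 higher and 1 lower, with sums of 103 to 123 FPKM at 7 days and 94.9 to 138 FPKM at 3 days. Of 6 B cell markers 1 had a row, Cd79b, at 2.84 to 3.48 FPKM at 7 days and 0.631 to 1.32 FPKM at 3 days. Of 2 T and NK cell markers 1 was higher, with sums of 1.53 to 2.88 FPKM at 7 days and 0.0841 to 0.438 FPKM at 3 days. All 8 neuron, 7 oligodendrocyte and 4 erythroid markers tested, 6 of 7 astrocyte markers, 5 of 7 endothelial markers and 4 of 6 fibroblast and pericyte markers were lower at 7 days, and 1 endothelial marker was higher. The neuron sums ran from 42.1 to 55.7 FPKM at 7 days and from 141 to 326 FPKM at 3 days. The part of any of these cells in the levels of the receptors was not tested. None of these lists had a marker at 0 in all 6 libraries.

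Genes of proteins that hand ligands to the receptors were mostly higher. Of 9 co-receptor and carrier genes tested of 13 listed, 6 were higher, beside 18.8% of all genes, and 1, Cd14, was lower, beside 20.3%, while Cd180 (adjusted p = 0.0986) and Itgam (0.372) were not called. The median log2 change was 0.73, and leaving out a library or rescaling gave between 3 and 8 higher and 1 lower. Ly96 encodes MD-2, the part of the Tlr4 complex that binds lipopolysaccharide. It had 27.6, 33.7 and 31.7 FPKM at 7 days, against 13.3, 19.8 and 23.2 FPKM at 3 days (log2 change 0.73 ± 0.20; limma adjusted p = 0.0241). The times did not overlap, and the call ended without 3-day replicate 2, 7-day replicate 2 or 7-day replicate 3 (adjusted p up to 0.0829). Cd14, which delivers lipopolysaccharide to that complex, fell to 16.0, 13.6 and 13.8 FPKM at 7 days, against 31.0, 25.8 and 24.8 FPKM at 3 days (log2 change -0.86 ± 0.12; adjusted p = 0.00237). The ratio of Tlr4 to Cd14 was 2.73, 3.14 and 3.22 at 7 days and 0.823, 0.930 and 1.11 at 3 days. Because Tlr4 rose and Cd14 fell without overlap, this ratio had to separate and adds nothing to those changes. The ratio of Tlr4 to Ly96 overlapped, at 1.58, 1.27 and 1.41 against 1.93, 1.21 and 1.19. Ly86, which encodes MD-1, the partner of the Tlr4 relative Cd180, averaged 302 ± 4.69 FPKM at 7 days and 110 ± 37.6 FPKM at 3 days (log2 change 1.50 ± 0.24). Lbp, which encodes the lipopolysaccharide binding protein, averaged 11.4 ± 2.60 and 4.66 ± 2.46 FPKM at 7 and 3 days (log2 change 1.19 ± 0.31), and lost its call without 3-day replicate 1 or 3 or 7-day replicate 2 or 3 (adjusted p of 0.0524 to 0.0782). Cd36, a scavenger receptor that assists Tlr2 with Tlr6, and Hmgb1, a nuclear protein that can act as a danger signal when released, were also higher, with log2 changes of 1.83 ± 0.15 and 0.85 ± 0.14.

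Genes that fold the receptors, carry them to endosomes or cut them there were higher in 8 of 16 tested members of 23 listed and lower in 1, beside 18.8% and 20.3% of all genes, with a median log2 change of 0.41, and the alternatives gave 4 to 12 higher and 1 lower. Unc93b1, which escorts the endosomal receptors out of the endoplasmic reticulum, had 358, 413 and 329 FPKM at 7 days, against 220, 204 and 227 FPKM at 3 days (log2 change 0.75 ± 0.12; limma adjusted p = 0.00378). No 7-day library overlapped a 3-day one. Tlr8 over Unc93b1 was 0.227, 0.193 and 0.242 at 7 days and 0.187, 0.200 and 0.214 at 3 days, which overlapped, and Tlr13 over Unc93b1 was lower at 7 days, at 0.413, 0.379 and 0.426 against 0.495, 0.522 and 0.559. Slc15a3, an endolysosomal transporter of peptides and histidine, had a log2 change of 0.71 ± 0.14, and Rab8a, a small GTPase of vesicle traffic, one of 0.83 ± 0.11. Ctsl, an endosomal protease that can cut Tlr9, rose (log2 change 1.35 ± 0.23), and the protease Ctsk was the 1 gene that fell (log2 change -0.91 ± 0.21). Ctsb and Ctss were left out of the test.

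Adaptors and kinases were mostly not called. Of 25 tested members of 30 listed, 4 were higher, near the 18.8% of all genes, 1 was lower, beside 20.3% of all genes, and 20 were not called, with a median log2 change of 0.08, and the alternatives gave 1 to 12 higher and 0 to 2 lower. Myd88, the adaptor of all members but Tlr3, was the 1 gene that fell. It had 21.8, 25.1 and 25.6 FPKM at 7 days, against 31.0, 29.1 and 41.1 FPKM at 3 days (log2 change -0.45 ± 0.15; limma adjusted p = 0.0436). The call ended in 8 of 17 alternatives, among them centring on the median gene (adjusted p = 0.0940) and leaving out any single library other than 3-day replicate 2 (0.0573 to 0.131). Ticam1, the gene of TRIF, was at 3.75 ± 0.343 FPKM at 7 days and 3.65 ± 0.539 FPKM at 3 days (log2 change 0.04 ± 0.16; adjusted p = 0.868). The genes that rose were Ripk1, a kinase downstream of TRIF (0.56 ± 0.12), the kinase Ikbke (0.49 ± 0.13) and the ubiquitin ligases Peli2 (0.44 ± 0.14) and Peli1 (0.35 ± 0.10), on the log2 scale. Ikbke lost the call without any 1 of the 7-day libraries (limma adjusted p of 0.0680 to 0.0732) and with quantile normalization (0.0581). Peli1 lost it without any library other than 3-day replicate 1 (0.0560 to 0.104) and with quantile normalization (0.0909). Peli2 lost it without any library other than 3-day replicate 2 (0.0673 to 0.132), and its q-value in the authors' deposited table is 0.208.

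Transcription factors of the pathway moved both ways, with 4 of 15 tested members higher and 4 lower and a median log2 change of 0.03. These counts are not far from the 18.8% and 20.3% of all genes, and the alternatives gave 3 to 6 higher and 4 or 5 lower. Irf7, which carries the signal of Tlr7 and Tlr9 to interferon genes, had 14.0, 17.3 and 17.3 FPKM at 7 days, against 94.5, 75.6 and 111 FPKM at 3 days. The times were far apart (log2 change -2.45 ± 0.16; limma adjusted p = 1.77e-04). Cebpb, Fos and Cebpd, factors induced by inflammatory signals, also fell (-1.46 ± 0.31, -1.16 ± 0.14 and -1.02 ± 0.17 on the log2 scale), and Atf3, which restrains inflammatory genes, rose (0.97 ± 0.20). Among genes listed as brakes on the signal, 7 of 32 tested members were higher and 8 lower, with a median log2 change of 0.16. These counts too are near the 18.8% and 20.3% of all genes, and the alternatives gave 5 to 16 higher and 6 to 10 lower, with 16 and 6 after centring on macrophage markers. The members that fell most were Socs3 (-1.94 ± 0.17), Dusp1 (-1.12 ± 0.19), Nfkbiz (-0.96 ± 0.17) and Bcl3 (-0.88 ± 0.17), on the log2 scale. A listed gene, Nfkbiz among them, need not act only as a brake. Tnfaip3, Irak3, Nfkbia and Nfkbie, also listed, were not called (limma adjusted p of 0.0825, 0.257, 0.209 and 0.208). The genes called higher, besides Cd300a, were Cyld (0.67 ± 0.11), Ptpn6 (0.62 ± 0.11), Tax1bp1 (0.59 ± 0.14), Tollip (0.51 ± 0.10), Tank (0.44 ± 0.11) and Itch (0.42 ± 0.09), on the log2 scale. Cd300a, an inhibitory receptor of myeloid cells, averaged 62.2 ± 3.53 FPKM at 7 days and 14.8 ± 1.83 FPKM at 3 days (log2 change 2.00 ± 0.11; adjusted p = 1.01e-04).

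Genes that these receptors can induce were mostly lower at 7 days, the time at which 4 of the receptors were higher. Of 28 tested members of 37 listed, 3 were higher, beside 18.8% of all genes, 15 were lower, beside 20.3%, and 10 were not called, with a median log2 change of -0.86, and the alternatives gave 12 to 17 lower and 3 or 4 higher. Other pathways, such as interferon and interleukin-1 signalling, induce many of the same genes. Cxcl10, a chemokine induced by interferon, had 2.79, 3.86 and 2.69 FPKM at 7 days, against 33.5, 27.3 and 43.0 FPKM at 3 days (log2 change -3.10 ± 0.19; limma adjusted p = 1.52e-04). The monocyte chemokines Ccl2 and Ccl7 averaged 26.7 ± 6.67 and 19.9 ± 5.54 FPKM at 7 days, against 196 ± 69.3 and 135 ± 36.4 FPKM at 3 days. Isg15, a ubiquitin-like protein of the interferon response, averaged 6.87 ± 1.31 and 50.8 ± 7.79 FPKM at 7 and 3 days. The neutrophil chemokine Cxcl3 was listed at 0, 0.199 and 0.0735 FPKM at 7 days, against 8.43, 4.15 and 4.32 FPKM at 3 days. The 3 members that rose, named after their values were seen, were Il1a (1.48 ± 0.14), Cd86 (0.85 ± 0.13) and Icam1 (0.51 ± 0.10), on the log2 scale.

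**Figure D4:**
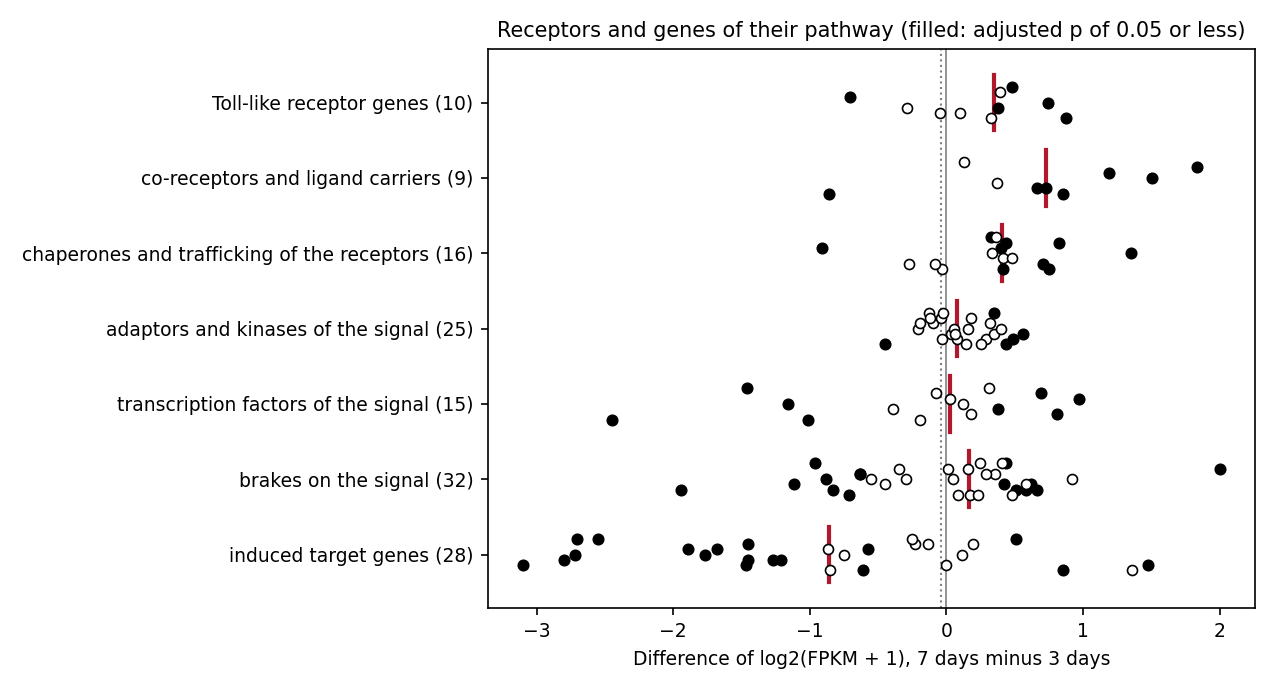
Difference of log2(FPKM + 1), 7 days minus 3 days, of the receptors and of each tested gene of 6 pathway lists (number of genes in brackets), with a point per gene, filled where the adjusted p is 0.05 or less, a red line at the median of the list and a dotted line at the median of all genes tested. Co-receptors and chaperones lie mostly to the right of 0, and induced target genes mostly to the left.

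Genes whose values over the 6 libraries lay nearest to those of the called receptors were read off as a description, by the root mean square difference of log2(FPKM + 1), each gene centred on its own mean, among 11072 genes with a mean of 1 FPKM or more. Nearest to Tlr8 were Atp6ap2 (0.0275), a subunit of the vacuolar proton pump, Rab12 (0.0310), a small GTPase, and Scpep1 (0.0318), a serine carboxypeptidase. Nearest to Tlr4 were Tmem68 (0.0340), the leukocyte phosphatase gene Ptprc (0.0419) and Chmp5 (0.0444), a component of the ESCRT machinery. Nearest to Tlr7 were Dbr1 (0.0382), the lariat debranching enzyme, Asb13 (0.0440) and Sdhaf2 (0.0475). Nearest to Tlr13 were Ap5s1 (0.0249), Nrde2 (0.0261) and 1700094D03Rik (0.0350), and nearest to Tlr5 were Apex2 (0.0462), Zfhx2 (0.0537) and Sema4c (0.0552).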

How the data were processed

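Per the labels' protocols, RNA bound to tagged ribosomes at the injury site was precipitated and sequenced from ScriptSeq v2 libraries. The submitters' processing notes name the build mm10 and the tools Cuffdiff 2.2.1, Cufflinks 2.2 and TopHat2 2.0.12, with no role or order. Per the file headers, each of the tables the authors deposited, 1 filtered and 1 unfiltered, holds an FPKM value per gene and library, the mean FPKM of each time, a log2 fold change, a test statistic (a score, not printed here), and a p-value and q-value per gene. The scaling between libraries and the filter are not stated.

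The unfiltered table was analysed. Of 13960 rows, 918 were left untested: 45 whose status was not OK, 837 others whose mean over the libraries lies more than 1% from the mean the authors give, 14 with a library at 0 beside 100 FPKM or more, and 32 of repeated symbols, with overlaps. The other 13042 genes were tested as log2(FPKM + 1) with limma 3.58.1 (R 4.3.3, mean-dependent prior variance, two-sided, Benjamini-Hochberg adjusted, 6 libraries), with no filter on low values. Fold changes are ratios of mean FPKM. The depth is unknown, so no counting interval is given. The fit was tested on simulated data. Alternatives were 2 pseudocounts, filters, scalings, 1 prior variance, a replicate block, the authors' q-value and leaving out each library. Centring on macrophage markers was added after seeing the data.

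The members, gene lists and tests were chosen with earlier results of these data known. Pathway genes named by rule were called genes of each list that changed most, up to 5, if either time averaged at least 1 FPKM. By the same rule Myd88, Ticam1, Unc93b1, Cd14 and Ly96 were always named. Other listed genes named in the text fall outside this rule. Tlr11 and Tlr12, on a list of their own, have no row in the table analysed. Other steps used matplotlib 3.10.9, numpy 2.4.6 and pandas 2.3.3 in Python 3.11.15. One marker gene is not reported here.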

Additional observations from a re-analysis of the deposited data

How the results depend on the processing

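Tlr8 and Tlr4 were called higher in all 17 alternatives, with log2 changes of 0.65 to 1.12 and 0.57 to 0.99. The count of Toll-like receptor genes called was 4 higher and 1 lower in each alternative of pseudocount, filter on low values, prior variance and rows set aside. Quantile normalization called Tlr4, Tlr6 and Tlr8 higher (3) and 0 lower, the centred median gene 5 and 1, and the authors' deposited q-value 5 and 1. Leaving out a library gave 2 to 3 higher and 0 to 2 lower, with 2 higher without 3-day replicate 1 or 7-day replicate 1 or 2.

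Centring on 7 macrophage markers, which themselves moved both ways, gave 7 receptors higher, with Tlr1, Tlr2 and Tlr6 added, and 0 lower. It moved the median of all genes from -0.04 to 0.21 and gave 4423 genes higher and 1453 lower, beside 2453 and 2645. The filtered table gave 1419 genes lower, and leaving out a library 1572 to 2207 higher and 1697 to 2565 lower, fewest in both directions without 7-day replicate 2. The share of calls that were higher moved with the scaling: it was 2317 higher against 1809 lower with quantile normalization and 2920 against 2321 once the median gene was centred. The sign turned for Tlr2 with quantile normalization (-0.10), and for Tlr9 with quantile normalization (0.082), centring on the median gene (0.038) or on macrophage markers (0.20), and without 3-day replicate 3 or 7-day replicate 3 (leaving out a library, -0.18 to 0.091). It turned for Ticam1 without 3-day replicate 2 or 7-day replicate 3 (-0.054 to 0.11). The cause was not tested. Of 31 pathway genes called and named by the stated rule, 25 were called in all 17 alternatives.

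Same-numbered libraries had correlations of deviations of 0.0995, 0.00545 and 0.00465. Deviations from a mean of 3 libraries constrain one another, so these correlations cannot decide whether same-numbered libraries share more than a number. The labels do not say. The replicate block gave the same member counts, 4 higher and 1 lower, and 2450 genes higher and 2425 lower; it ended the calls of Peli1 and Peli2 (adjusted p = 0.0532 and 0.0677), and not every library correlated best with its own number. The number of reads is unknown, so the precision of Tlr5 near 1 FPKM cannot be stated beyond the spread between libraries.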
